A study of Mus musculus with 2 samples.

Results

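The Ly6/uPAR family members described here are Slurp1, Lypd3, Lypd6, Lypd6b, Ly6a, Ly6d, Ly6e, Ly6g6c and Plaur, 9 genes of the 31053 in the deposited count matrices. They were listed by name from the family, with earlier results of these data known. All 9 had at least 20 unique molecular identifiers (UMIs, 1 per captured RNA molecule) over both libraries. A further 31 listed family genes were present in the matrices. Single live cells of dorsal skin from female C57BL/6 mice aged 6 to 8 weeks were measured in 2 libraries, 1 from Chrna5-/- mice and 1 from wild-type (WT) mice. Both libraries are labelled as vaseline controls, and the protocol's schedule was 6 days of application with collection on day 7. Skin was digested with collagenase and SytoxBlue-negative cells were sorted as live. The protocol text speaks of imiquimod-treated skin, so treatment rests on the sample labels. It names both C57BL/6N and C57BL/6J, so the substrain is not settled. The Chrna5-/- line had been backcrossed to C57BL/6N, per the submitters' description. How many mice went into a library, and which stretch of Chrna5 was removed, is not stated in the labels. With 1 library per genotype, every difference below lies between these libraries, no test across samples was possible, and intervals cover counting error only.

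Ly6/uPAR proteins share a small disulphide-bonded fold, known as the three-finger fold from snake toxins that bind nicotinic acetylcholine receptors. Some members, such as Slurp1, are secreted and act on nicotinic receptors of keratinocytes, while most are held on the cell surface by a glycosylphosphatidylinositol (GPI) anchor. In epidermis several of them mark stages of keratinocyte differentiation, and in mouse Ly6a and Ly6e are also known as interferon-induced genes. Chrna5 encodes the alpha 5 nicotinic receptor subunit, which joins other subunits in receptors that such ligands can bind.

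The members lie in several family clusters of the mouse genome (GENCODE vM21 on GRCm38, protein-coding genes). On chromosome 15 are Slurp1 (chr15:74724318-74728034, minus strand), Ly6d (chr15:74762056-74763620, minus strand), Ly6e (chr15:74955051-74959905, plus strand) and Ly6a (chr15:74994877-74998031, minus strand). Chromosome 7 carries Plaur (chr7:24462484-24475968, plus strand) and Lypd3 (chr7:24636550-24641118, plus strand). Lypd6b (chr2:49787688-49948849, plus strand) and Lypd6 (chr2:50066429-50193569, plus strand) neighbour each other on chromosome 2, and Ly6g6c lies on chromosome 17 (chr17:35065388-35070050, plus strand). On the opposite strand, Slurp1 overlaps Them6, Lypd3 overlaps Gm26550, Lypd6b overlaps Gm13480 and Gm25223, and Ly6g6c overlaps Mpig6b. Whether counting used strand is not stated, and how far reads in these overlaps were told apart was not tested. Ly6a has closely similar relatives in the same cluster, Ly6c1 and Ly6c2 among them, so its counts are uncertain to the extent that reads were split between copies.

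Promoter sequences are shown for Lypd3, whose ratio lay under 1 in each compared keratinocyte state, for Plaur, and for Cd59a, the family gene outside the members with the clearest higher level. RefSeq's promoter table (GRCm38.p6) matched 4 of the 9 members: Lypd3, Lypd6, Ly6g6c and Plaur. Each sequence is the 250 bases before the start, 5′ to 3′ on the plus strand, with motif matches in capitals, and the start is RefSeq's, which need not be GENCODE's gene start.
Lypd3, chr7:24636320-24636569: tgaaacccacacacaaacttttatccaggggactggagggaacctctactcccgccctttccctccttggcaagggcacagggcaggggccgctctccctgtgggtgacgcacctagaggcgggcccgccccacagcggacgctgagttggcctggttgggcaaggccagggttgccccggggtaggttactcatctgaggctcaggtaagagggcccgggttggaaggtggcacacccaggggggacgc
Plaur, chr7:24462233-24462482: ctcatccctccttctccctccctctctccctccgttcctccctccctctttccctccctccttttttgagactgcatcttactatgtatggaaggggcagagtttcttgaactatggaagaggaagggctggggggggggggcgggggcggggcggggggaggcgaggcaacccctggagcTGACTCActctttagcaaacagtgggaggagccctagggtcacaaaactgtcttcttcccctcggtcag
Cd59a, chr2:104095551-104095800: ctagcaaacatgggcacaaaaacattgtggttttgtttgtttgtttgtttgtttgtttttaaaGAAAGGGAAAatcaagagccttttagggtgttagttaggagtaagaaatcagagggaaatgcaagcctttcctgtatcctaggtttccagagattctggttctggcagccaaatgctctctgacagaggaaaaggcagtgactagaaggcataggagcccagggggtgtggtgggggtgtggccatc
Motifs were searched on both strands in 300 bases, from 250 before to 50 after the start. TGANTCA, the AP-1 type motif, was found once in Plaur, beginning 69 bases before the start, and is held by 7.81% of the 32851 promoters in the table. The interferon response type motif (GAAA, 2 bases of any kind, GAAA), which 3.44% of promoters hold, was found once in Cd59a, beginning 187 bases before the start. TTCNNNGAA, the STAT type motif held by 8.30% of promoters, was found in none of the 5 promoters searched, which were those of the 4 matched members and Cd59a. No match overlapped another, and a match is a description of letters, not of binding.

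The Chrna5-/- library held 9696 barcodes and 125458721 UMIs, of which 8869 cells with 115196534 UMIs were kept, and the WT library held 10741 barcodes and 139673385 UMIs, of which 9673 cells with 128058321 UMIs were kept. Median depth was 12316 UMIs in Chrna5-/- and 12552 in WT per kept cell. Chrna5 itself had 2 UMIs in Chrna5-/- and 11 in WT, too few to check the label firmly, and UMIs outside the deleted part would check nothing. Of 20 clusters, 12 had keratinocyte markers, and 7230 Chrna5-/- and 7778 WT cells fell in them. Their states, named from marker lists and written without the suffix -like below, were basal (clusters 5, 9 and 10), cycling (11, 13, 17 and 19), suprabasal (8), outer root sheath and bulge (4 and 7), upper hair follicle (6) and hair matrix (16). No cluster was named granular, the outermost living layer. In clusters 5, 10, 13 and 17 none of the 10 leading genes was a marker of the state, so those names rest on marker levels, and the basal cells were spread unevenly: cluster 5 held 640 Chrna5-/- and 197 WT cells, cluster 9 held 1457 Chrna5-/- and 1212 WT cells, and cluster 10 held 709 Chrna5-/- and 1472 WT cells. Other compared classes were T and innate lymphoid (12), dermal papilla and sheath (0), fibroblast (2 and 3) and the unnamed cluster 15, led by Srgn, Icos and Cd52. Hair matrix, melanocyte and Langerhans cell clusters had under 100 cells in a library and are given as values only. The libraries shared 34 barcodes, and leaving those cells out changed no member's call in the pooled keratinocytes.

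Levels are UMI counts summed over the cells of a class and expressed per 1000000 UMIs of that class (CPM), and a ratio is Chrna5-/- over WT with an exact conditional binomial 95% interval. A gene is called higher or lower at a ratio of at least 1.5 either way, an interval that leaves out 1 and at least 20 UMIs over both libraries. In bulk sums of a class, fewer expressing cells and less RNA per cell cannot be told apart without the per-cell values given beside them.

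**Figure D1:**
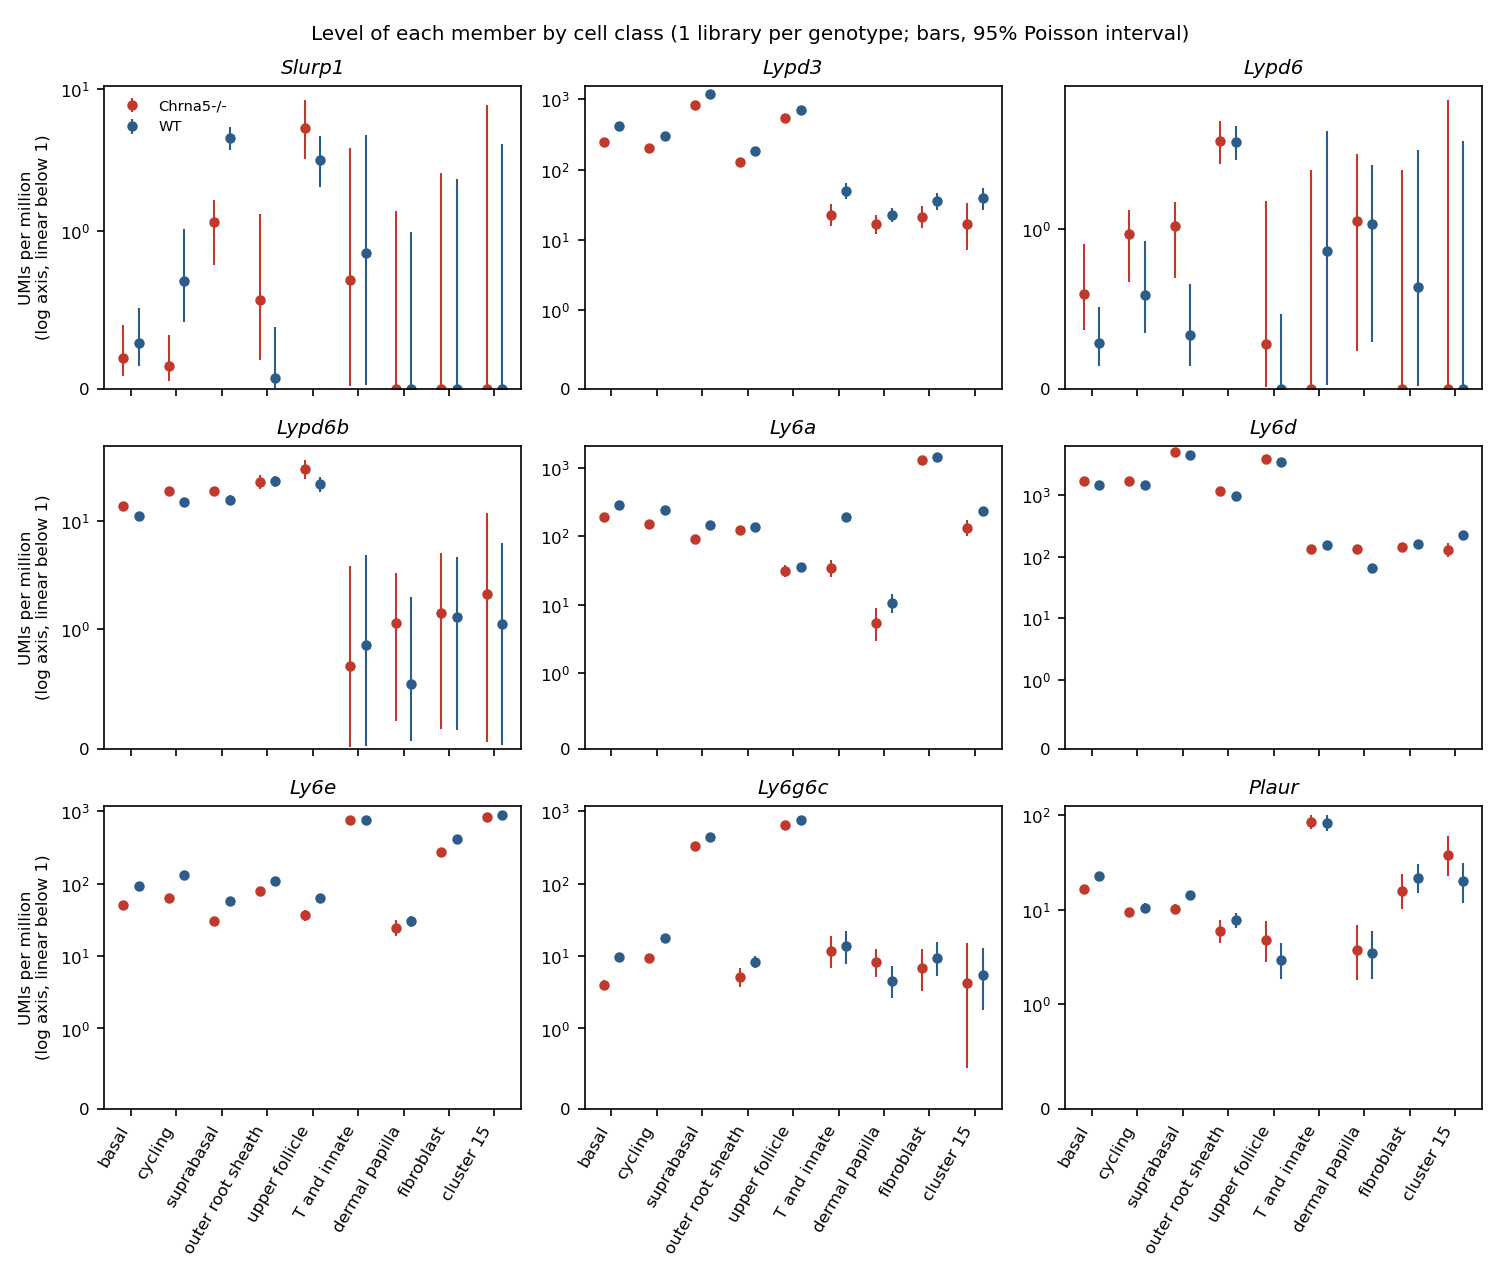
CPM (log axis, linear below 1) of each of the 9 members in 9 cell classes, Chrna5-/- in red at left and WT in blue at right of each pair, with 95% Poisson intervals. Lypd3, Ly6d and Lypd6b sit higher in keratinocyte classes than in the others, Ly6a is highest in fibroblasts, Ly6e in T cells and cluster 15, and Ly6g6c in suprabasal and upper follicle cells.

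In the pooled keratinocyte clusters 2 of 9 members, Slurp1 and Ly6e, were lower in the Chrna5-/- library, where 8.08% of all measured genes were lower. None of the 9 was higher, against 2.64% of genes. Over all kept cells the same 2 of 9 were lower (background 8.96%) and 0 higher (2.62%). The Slurp1 calls in keratinocytes and in cycling cells were each lost without 1 WT cell, with values given below. The Ly6e call over all kept cells, at a log2 ratio of -0.70, held in 12 of 15 alternatives. It was lost, among others, at -0.30 with clusters weighted alike. The median log2 ratio of the members was -0.50 in keratinocytes, beside -0.04 over all measured genes. With so few members these counts are read member by member.

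By state, 3 of 8 measured members were lower in basal cells (Lypd3, Ly6e and Ly6g6c; background 5.61%) and 0 higher (3.67%). Cycling cells had 4 of 9 lower (Slurp1, Ly6a, Ly6e and Ly6g6c; 5.11%) and 0 higher (2.82%). Suprabasal cells had 3 of 9 lower (Slurp1, Ly6a and Ly6e; 4.66%) and 1 higher (Lypd6; 3.2%). In outer root sheath and bulge 1 of 8 was lower (Ly6g6c; 4.99%) and 0 higher (2.7%), and in upper hair follicle 1 of 8 was lower (Ly6e; 3.13%) and 0 higher (3.3%). Outside keratinocytes, T and innate lymphoid cells had 2 of 6 lower (Lypd3 and Ly6a; 5.13%) and 0 higher (2.8%). The dermal papilla had 1 of 6 lower (Ly6a; 3.98%) and 1 higher (Ly6d; 3.59%), fibroblasts 1 of 6 lower (Lypd3; 5.94%) and 0 higher (5.5%), and cluster 15 had 3 of 5 lower (Lypd3, Ly6a and Ly6d; 5.03%) and 0 higher (6.51%).

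**Figure D2:**
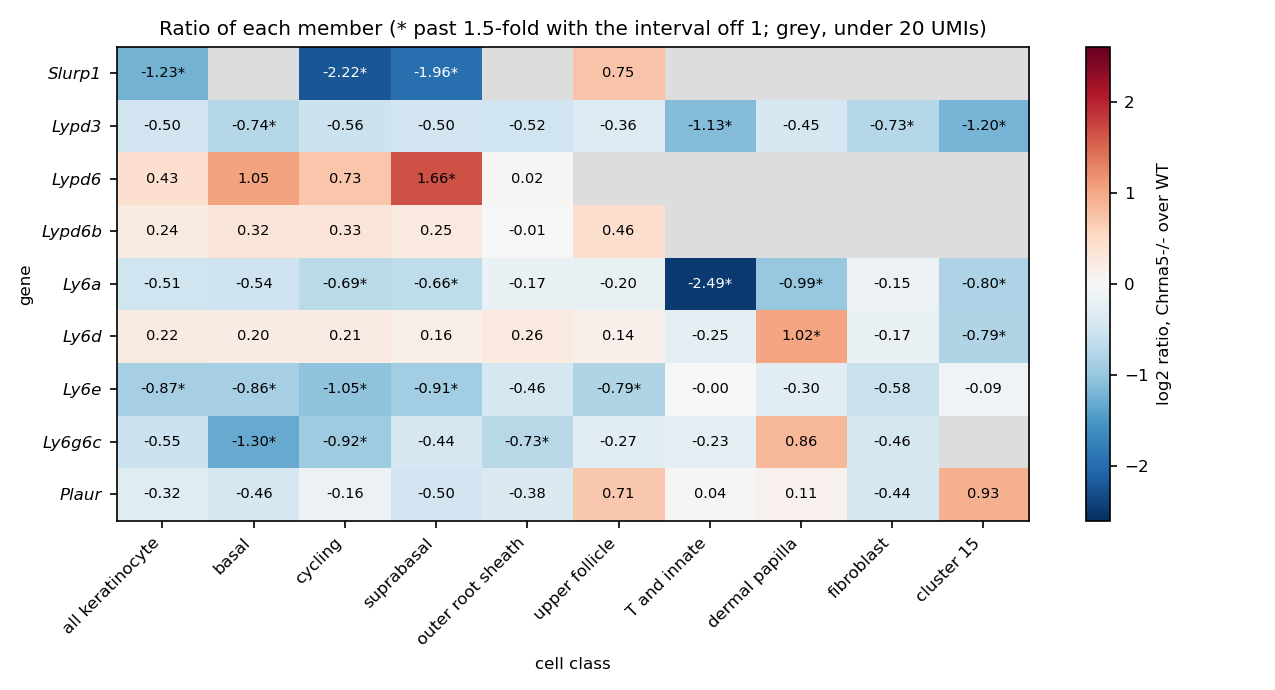
Log2 ratio, Chrna5-/- over WT, of each member (rows) in the pooled keratinocytes and 9 classes (columns), with called values starred and classes under 20 UMIs in grey. Ly6e and Lypd3 are at or below 0 in each measured class, Ly6a reaches its lowest value, -2.49, in T cells, and Lypd6b stays between -0.01 and 0.46.

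Slurp1, a secreted keratinocyte ligand of nicotinic receptors whose human gene is mutated in the palmoplantar skin disorder mal de Meleda, was scarce and lay in few cells. It had 67 UMIs in Chrna5-/- and 168 in WT over all kept cells, or 0.582 CPM in the Chrna5-/- library and 1.31 CPM in the WT library. In keratinocytes the level was 0.609 CPM in the Chrna5-/- library and 1.42 CPM in the WT library, a ratio of 0.428 (0.317 to 0.572). A UMI was found in 0.650% (0.478 to 0.864) of Chrna5-/- cells and 0.823% (0.634 to 1.05) of WT cells, shares whose intervals overlap, at median depths of 14025 UMIs in Chrna5-/- and 14236 in WT. In the dermal papilla, which should lack it, 0 of 507 Chrna5-/- cells and 0 of 583 WT cells had one, which allows shares of up to 0.725% in Chrna5-/- and 0.631% in WT (exact interval). After thinning each cell to 1000 UMIs the keratinocyte shares were 0.0421% in Chrna5-/- and 0.118% in WT, near the level of single UMIs.

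Much of the WT sum came from 1 cell. That suprabasal cell held 60 of the 168 WT UMIs (35.7%), with 54 of Slurp2, 440 of Flg and 52111 in all, and the richest Chrna5-/- cell, in the upper hair follicle cluster, held 11 of 67 (16.4%). Most positive cells had a single UMI, 39 of 48 in the Chrna5-/- library and 53 of 65 in WT. Without the richest WT cell the keratinocyte ratio was 0.667 (0.483 to 0.915) and Slurp1 was neither higher nor lower. With the richest cell of each library left out it was 0.556 (0.394 to 0.777), and without the 10 richest of each it was 0.715 (0.459 to 1.10), again neither.

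**Figure D3:**
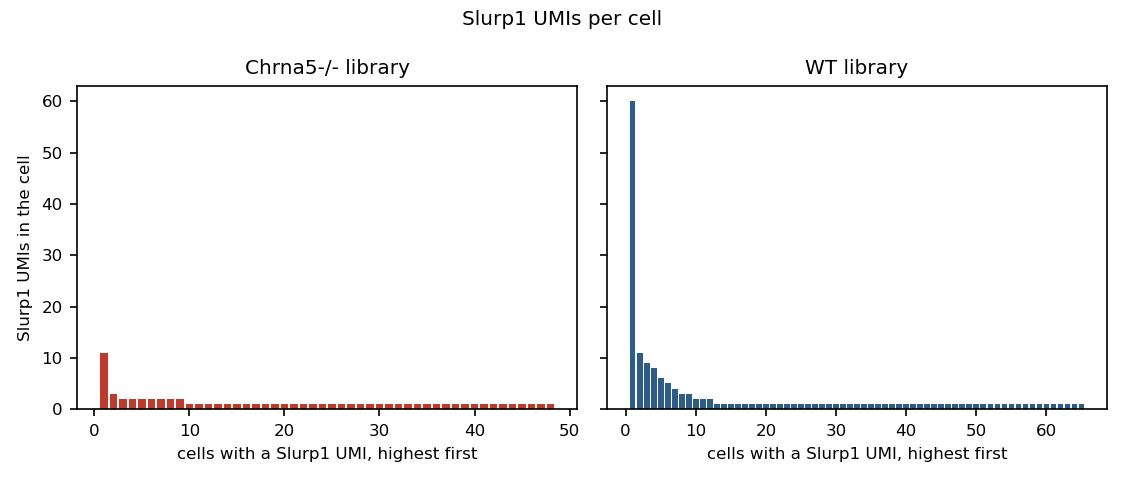
Slurp1 UMIs in each kept cell with at least 1, highest first, for the Chrna5-/- library (left, 48 cells) and the WT library (right, 65 cells). A single WT cell reaches 60 UMIs, while no other cell of either library has more than 11.

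By state, suprabasal Slurp1 was 30 UMIs in Chrna5-/- and 109 in WT, or 1.16 CPM in Chrna5-/- and 4.53 CPM in WT, a ratio of 0.257 (0.165 to 0.388). It stayed lower without the richest WT cell (ratio 0.570, interval 0.349 to 0.916) and was neither without the 10 richest cells of each library (ratio 0.783, interval 0.376 to 1.61). Cycling cells had 5 UMIs in Chrna5-/- and 21 in WT, a ratio of 0.215 (0.0633 to 0.586). Of the WT UMIs 11 lay in 1 cell of cluster 19, and without it 5 UMIs in Chrna5-/- and 10 in WT were left (ratio 0.451, interval 0.121 to 1.45), too few to call. Upper hair follicle cells had 19 UMIs in Chrna5-/- and 25 in WT, or 5.35 CPM in Chrna5-/- and 3.18 CPM in WT, a ratio of 1.68 (0.876 to 3.18) that was neither. Of its Chrna5-/- UMIs 11 lay in 1 cell. The ratio was 1.05 (0.393 to 2.57) without the richest cell of each library, and 2.47 (1.22 to 5.06), called higher, without the richest WT cell alone. Basal cells had 7 UMIs in Chrna5-/- and 11 in WT and outer root sheath cells 5 UMIs in Chrna5-/- and 1 in WT, too few to measure.

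Cells with a Slurp1 UMI were rich in RNA of several listed granular layer genes, though not of all. Flg, the filaggrin gene, was at 113 CPM in such Chrna5-/- keratinocytes and 726 CPM in such WT keratinocytes, and at 0.941 CPM in the other Chrna5-/- and 1.69 CPM in the other WT keratinocytes. These values were split on Slurp1 itself and are a description. Single cells held much of them: 75 of 111 Flg UMIs in 1 cell in Chrna5-/- and 440 of 1070 Flg UMIs in 1 cell in WT. Lor, encoding loricrin, was at 92.4 CPM in the positive Chrna5-/- cells and 266 CPM in the positive WT cells, where the cell richest in Lor held 37 UMIs in Chrna5-/- and 164 in WT. Tgm3 was at 22.3 CPM in the positive and 29.0 CPM in the other Chrna5-/- keratinocytes. In WT it was at 30.5 CPM in the positive and 16.9 CPM in the other keratinocytes. Lce1a1 and Lce1b were not found in positive cells of either library and were scarce in the others. Of the listed granular layer genes, 4 were lower and 1 higher of 9 measured in keratinocytes, with a median log2 ratio of -0.60, the lowest being Flg (ratio 0.181) and the highest Tgm3 (ratio 1.69), a transglutaminase gene. In suprabasal cells 5 were lower and 0 higher of 8 measured, with a median of -1.04. The part of granular cell number in the Slurp1 ratio was not tested.

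Slurp2, the neighbouring secreted relative that also acts on cholinergic receptors, had 224 UMIs in Chrna5-/- and 225 in WT in keratinocytes, a ratio of 1.08 (0.892 to 1.30) that was neither. Of the WT UMIs 54 lay in the WT cell richest in Slurp1, and the Slurp2 ratio without that cell was not computed. Slurp2 was higher in upper hair follicle cells, at 14.9 CPM in Chrna5-/- and 6.74 CPM in WT (ratio 2.21, interval 1.48 to 3.30). Few cells held much of this: the 2 Chrna5-/- cells richest in Slurp1, both of this class, held 21 and 10 Slurp2 UMIs. In upper hair follicle cells without a Slurp1 UMI, Slurp2 was at 5.56 CPM in 274 Chrna5-/- cells and 4.90 CPM in 518 WT cells. The difference between the Slurp1 and Slurp2 ratios was not tested.

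Lypd3, the GPI-anchored C4.4A antigen and a structural relative of the urokinase receptor, was at 371 CPM in the Chrna5-/- library and 526 CPM in the WT library in keratinocytes, a ratio of 0.706 (0.697 to 0.715) that fell short of the 1.5-fold rule. It was lower in basal cells, at 248 CPM in Chrna5-/- and 415 CPM in WT (ratio 0.599, interval 0.584 to 0.615). Within single basal clusters the ratio was 0.693 in cluster 5 and 0.685 in cluster 9, both neither, and 0.607 in cluster 10, lower. The pooled basal ratio lay under all 3, and the libraries filled these clusters unevenly. In suprabasal cells, where it was highest in both libraries, it was 833 CPM in Chrna5-/- and 1178 CPM in WT (ratio 0.707), and in cycling, outer root sheath and upper hair follicle cells the ratios were 0.676, 0.699 and 0.781. Across the 11 keratinocyte clusters other than the hair matrix the ratio ran between 0.516 (cluster 17) and 0.781 (cluster 6), while hair matrix cluster 16 had 91.5 CPM in Chrna5-/- and 82.9 CPM in WT.

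The Lypd3 difference was spread over cells. The median suprabasal cell had 7.07 Lypd3 UMIs per 10000 in the Chrna5-/- library and 10.1 in WT, and the 90th percentile was 16.8 in Chrna5-/- and 23.8 in WT. In basal cells the medians were 1.61 in Chrna5-/- and 3.07 in WT. Keratinocytes with a UMI made up 78.3% (77.3 to 79.2) of Chrna5-/- cells and 83.9% (83.1 to 84.7) of WT cells, or 25.8% in Chrna5-/- and 33.3% in WT after thinning. In T and innate lymphoid cells the shares were 6.60% (4.56 to 9.19) of Chrna5-/- cells and 10.9% (8.14 to 14.3) of WT cells, at median depths of 2826 UMIs in Chrna5-/- and 2631 in WT. There the level was 22.8 CPM in Chrna5-/- and 49.9 CPM in WT, called lower, and the 10 keratinocyte markers summed to 1853 CPM in Chrna5-/- and 2847 CPM in WT T cells. Fibroblasts, at 21.5 CPM in Chrna5-/- and 35.6 CPM in WT, and cluster 15, at 16.9 CPM in Chrna5-/- and 38.9 CPM in WT, were called lower too. Those calls held in 9 of 14 and 5 of 9 alternatives, and the dermal papilla had 16.6 CPM in Chrna5-/- and 22.6 CPM in WT (ratio 0.734), neither. Per 1000 UMIs of the 10 keratinocyte markers, Lypd3 UMIs in T cells were 12.3 in Chrna5-/- and 17.5 in WT. In fibroblasts they were 7.95 in Chrna5-/- and 12.1 in WT, and in keratinocytes 10.6 in Chrna5-/- and 15.2 in WT. In both libraries these proportions lay within 1.5-fold of the keratinocyte one, and the part of free keratinocyte RNA in the Lypd3 calls outside keratinocytes was not tested.

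Ly6g6c, a family member from the major histocompatibility region, lay mostly in suprabasal and upper hair follicle cells. They held 74.9% and 20.1% of its Chrna5-/- UMIs and 59.7% and 33.9% of its WT UMIs. The suprabasal class had 1655 Chrna5-/- and 1418 WT cells, and the upper hair follicle class 281 Chrna5-/- and 533 WT cells. Such shares depend on cell number as well as on the level of Ly6g6c. In suprabasal cells it was 328 CPM in Chrna5-/- and 444 CPM in WT (ratio 0.739, interval 0.718 to 0.761) and in upper hair follicle cells 639 CPM in Chrna5-/- and 771 CPM in WT (ratio 0.829, interval 0.789 to 0.870), neither in both. Its lower calls came where it was scarce. Basal cells had 3.98 CPM in Chrna5-/- and 9.81 CPM in WT (ratio 0.405, interval 0.332 to 0.493), cycling cells 9.45 CPM in Chrna5-/- and 17.9 CPM in WT (ratio 0.529) and outer root sheath cells 5.06 CPM in Chrna5-/- and 8.39 CPM in WT (ratio 0.604). The outer root sheath call held in 8 of 14 alternatives. Among single basal clusters the ratio was 0.652 in cluster 5, 0.412 in cluster 9 and 0.441 in cluster 10. Among classes that should lack it, T cells had 11.7 CPM in Chrna5-/- and 13.8 CPM in WT, fibroblasts 6.92 CPM in Chrna5-/- and 9.55 CPM in WT and the dermal papilla 8.31 CPM in Chrna5-/- and 4.58 CPM in WT. The Chrna5-/- basal level lay below these 3, and the WT basal level lay above the dermal papilla, near fibroblasts and below T cells.

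Lypd6 and Lypd6b, anchored relatives known to modulate nicotinic receptors, with Lypd6 also known to enhance Wnt signalling through Lrp6, were rare to moderate. Lypd6 had 118 UMIs in Chrna5-/- and 95 in WT in keratinocytes, a ratio of 1.34 (1.02 to 1.78), and was highest in outer root sheath and bulge cells at 4.05 CPM in Chrna5-/- and 3.98 CPM in WT, where the ratio was 1.02. The direction of the keratinocyte ratio held in 13 of 15 alternatives. Lypd6 was higher in suprabasal cells on 27 UMIs in Chrna5-/- and 8 in WT, a ratio of 3.15 (1.39 to 8.02) that kept its call in 11 of 13 alternatives. Basal cells had 21 UMIs in Chrna5-/- and 11 in WT (ratio 2.06, interval 0.951 to 4.74), neither. Cycling cells had 33 UMIs in Chrna5-/- and 18 in WT (ratio 1.66, interval 0.906 to 3.12), also neither. The share of suprabasal cells with a UMI was 1.33% (0.835 to 2.01) of Chrna5-/- cells and 0.494% (0.199 to 1.01) of WT cells, and the dermal papilla had 0.592% (0.122 to 1.72) of Chrna5-/- cells and 0.686% (0.187 to 1.75) of WT cells, at median depths of 15398 UMIs in Chrna5-/- and 16458 in WT suprabasal cells and 5352 UMIs in Chrna5-/- and 6733 in WT dermal papilla cells. These intervals overlap, so the suprabasal shares are not told apart from those of the dermal papilla. Whether the dermal papilla lacks Lypd6 was not tested. Thinned suprabasal shares were 0.0617% in Chrna5-/- and 0% in WT. Of the 5 listed Wnt genes around Lypd6, 1 was higher and 0 lower in keratinocytes: Axin2, a Wnt target gene (ratio 1.70), while Ctnnb1 had the lowest ratio, 0.866. The median log2 ratio of these 5 was 0.12.

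Lypd6b was steadier. Its level was 17.7 CPM in the Chrna5-/- library and 15.0 CPM in the WT library in keratinocytes (ratio 1.18, interval 1.10 to 1.26), 18.7 CPM in Chrna5-/- and 15.7 CPM in WT in suprabasal and 29.8 CPM in Chrna5-/- and 21.6 CPM in WT in upper hair follicle cells, and it was neither in each measured class. Outside keratinocytes it had at most 3 UMIs in a compared class of either library. Among single clusters it was higher in basal cluster 10, at 14.7 CPM in Chrna5-/- and 9.24 CPM in WT (ratio 1.59), and lower in bulge cluster 7, at 17.9 CPM in Chrna5-/- and 29.2 CPM in WT (ratio 0.614), both clusters of uneven size between the libraries.

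Ly6d, a GPI-anchored keratinocyte antigen whose human form is called E48, was at 2476 CPM in the Chrna5-/- library and 2119.8 CPM in the WT library in keratinocytes, a ratio of 1.17 (1.16 to 1.17) that was neither. It was highest in suprabasal cells, at 4911 CPM in Chrna5-/- and 4403 CPM in WT, and next in upper hair follicle cells, at 3821 CPM in Chrna5-/- and 3468 CPM in WT. Basal cells had 1684 CPM in Chrna5-/- and 1464 CPM in WT, cycling cells 1701 CPM in Chrna5-/- and 1468 CPM in WT and outer root sheath and bulge cells 1170.3 CPM in Chrna5-/- and 977 CPM in WT. The ratio in these 5 states ran between 1.10 and 1.20, none past 1.5. Inside the outer root sheath class cluster 4 had 1502 CPM in Chrna5-/- and 1473 CPM in WT and bulge cluster 7 had 114 CPM in Chrna5-/- and 93.7 CPM in WT, so the bulge cluster was the poorer in both libraries. Keratinocytes with a UMI made up 94.6% (94.03 to 95.1) of Chrna5-/- cells and 89.9% (89.2 to 90.6) of WT cells, and 73.6% in Chrna5-/- and 65.4% in WT after thinning. In T and innate lymphoid cells, which should lack Ly6d, the shares were 27.2% (23.3 to 31.4) of Chrna5-/- cells and 22.8% (18.9 to 27.1) of WT cells.

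In the dermal papilla Ly6d was called higher, at 133 CPM in Chrna5-/- and 65.8 CPM in WT (ratio 2.03, interval 1.72 to 2.40), and in cluster 15 lower, at 129 CPM in Chrna5-/- and 223 CPM in WT (ratio 0.578, interval 0.427 to 0.773). Per 1000 keratinocyte marker UMIs its UMIs in the dermal papilla were 83.7 in Chrna5-/- and 45.1 in WT. In cluster 15 they were 73.7 in Chrna5-/- and 75.6 in WT, and in keratinocytes 70.6 in Chrna5-/- and 61.4 in WT. With no doublet removal the dermal papilla call was lost, at a log2 ratio of 0.22, and the cluster 15 call held in 5 of 10 alternatives. The part of free keratinocyte RNA in both calls was not tested.

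Ly6e, a GPI-anchored interferon-induced protein, was lower in keratinocytes, at 52.1 CPM in the Chrna5-/- library and 95.3 CPM in the WT library, a ratio of 0.546 (0.529 to 0.564). It was lower in basal cells, at 51.4 CPM in Chrna5-/- and 93.2 CPM in WT (ratio 0.551), and in cycling cells, at 63.5 CPM in Chrna5-/- and 131 CPM in WT (ratio 0.483). It was lower too in suprabasal cells, at 31.0 CPM in Chrna5-/- and 58.3 CPM in WT (ratio 0.531), and in upper hair follicle cells, at 36.6 CPM in Chrna5-/- and 63.1 CPM in WT (ratio 0.580). In outer root sheath and bulge cells it was 79.7 CPM in Chrna5-/- and 109 CPM in WT (ratio 0.729), neither. Within that class it was lower in cluster 4, at 96.6 CPM in Chrna5-/- and 153 CPM in WT (ratio 0.632), and neither in cluster 7, at 25.9 CPM in Chrna5-/- and 31.7 CPM in WT (ratio 0.818), which held 217 Chrna5-/- and 620 WT cells. The basal clusters, whose sizes differed between the libraries, gave like ratios one by one: 0.546 in cluster 5, 0.538 in cluster 9 and 0.588 in cluster 10. The share of keratinocytes with a UMI was 44.1% (42.9 to 45.2) of Chrna5-/- cells and 57.8% (56.7 to 58.9) of WT cells, and 4.79% in Chrna5-/- and 8.28% in WT after thinning.

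In T and innate lymphoid cells Ly6e stood at 746 CPM in Chrna5-/- and 746 CPM in WT, a ratio of 0.999 (0.913 to 1.09), and in cluster 15 at 844 CPM in Chrna5-/- and 899 CPM in WT (ratio 0.939, interval 0.831 to 1.06). Fibroblasts had 278 CPM in Chrna5-/- and 414 CPM in WT (ratio 0.671, interval 0.591 to 0.761), neither, and Langerhans cells 325 CPM in Chrna5-/- and 296 CPM in WT. The keratinocyte and T cell intervals for Ly6e do not overlap, but the difference between the classes was not tested across samples.

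Ly6a, also called Sca-1, a mouse surface antigen of progenitor cells, was highest in fibroblasts, at 1315 CPM in Chrna5-/- and 1464 CPM in WT (ratio 0.899, interval 0.845 to 0.955), neither. Keratinocytes had 144 CPM in the Chrna5-/- library and 206 CPM in the WT library, a ratio of 0.700 (0.686 to 0.714), also neither. It was lower in cycling cells, at 152 CPM in Chrna5-/- and 246 CPM in WT (ratio 0.618), and in suprabasal cells, at 91.3 CPM in Chrna5-/- and 145 CPM in WT (ratio 0.631). The suprabasal call was lost after thinning, at a log2 ratio of -0.44. Basal cells had 194 CPM in Chrna5-/- and 282 CPM in WT (ratio 0.687), neither. Outer root sheath and bulge cells had 123 CPM in Chrna5-/- and 138 CPM in WT (ratio 0.889) and upper hair follicle cells 31.0 CPM in Chrna5-/- and 35.6 CPM in WT (ratio 0.869), each neither.

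The lowest Ly6a ratio was in T and innate lymphoid cells, with 50 UMIs in Chrna5-/- and 226 in WT, or 34.5 CPM in Chrna5-/- and 195 CPM in WT, a ratio of 0.177 (0.128 to 0.242). A UMI was found in 7.84% (5.60 to 10.6) of Chrna5-/- cells and 27.4% (23.3 to 31.9) of WT cells, or 3.19% in Chrna5-/- and 13.6% in WT after thinning, at median depths of 2826 UMIs in Chrna5-/- and 2631 in WT. Within this class the larger sub-cluster, of 381 Chrna5-/- and 334 WT cells and rich in Trdc, the T cell receptor delta gene, had 34.7 CPM of Ly6a in Chrna5-/- and 204 CPM in WT. Its Trdc level was 4235 CPM in Chrna5-/- and 3855 CPM in WT. The smaller, of 104 Chrna5-/- and 96 WT cells, had 3 Ly6a UMIs in Chrna5-/- and 8 in WT. Per 1000 keratinocyte marker UMIs, Ly6a UMIs in T cells were 18.6 in Chrna5-/- and 68.3 in WT, and in keratinocytes 4.11 in Chrna5-/- and 5.96 in WT. The T cell proportion stood above the keratinocyte one in both libraries. Cluster 15 was lower at 133 CPM in Chrna5-/- and 232 CPM in WT (ratio 0.574), a call that held in 8 of 10 alternatives. The dermal papilla call, 5.29 CPM in Chrna5-/- and 10.5 CPM in WT on 14 UMIs in Chrna5-/- and 39 in WT, stood per 1000 marker UMIs at 3.32 in Chrna5-/- and 7.21 in WT, close to the keratinocyte proportion, and turned the other way after thinning, at a log2 ratio of 0.93.

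Other interferon-induced genes were lower beside Ly6a and Ly6e. Of that list, 8 were lower and 0 higher of 9 measured in keratinocytes, with a median log2 ratio of -1.996, the lowest being Rtp4 (ratio 0.0471). In T and innate lymphoid cells 3 were lower and 0 higher of 5 measured, with a median of -0.97, the lowest being Ifi27l2a at 6.21 CPM in Chrna5-/- and 57.7 CPM in WT (ratio 0.108) and the highest Bst2 (ratio 0.843). Fibroblasts had 4 of 10 lower, with a median of -0.48. In keratinocytes Ly6e and Ly6a had log2 ratios of -0.87 and -0.51, nearer to 0 than the list's median. The part of an interferon difference in the Ly6a and Ly6e ratios was not tested.

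**Figure D4:**
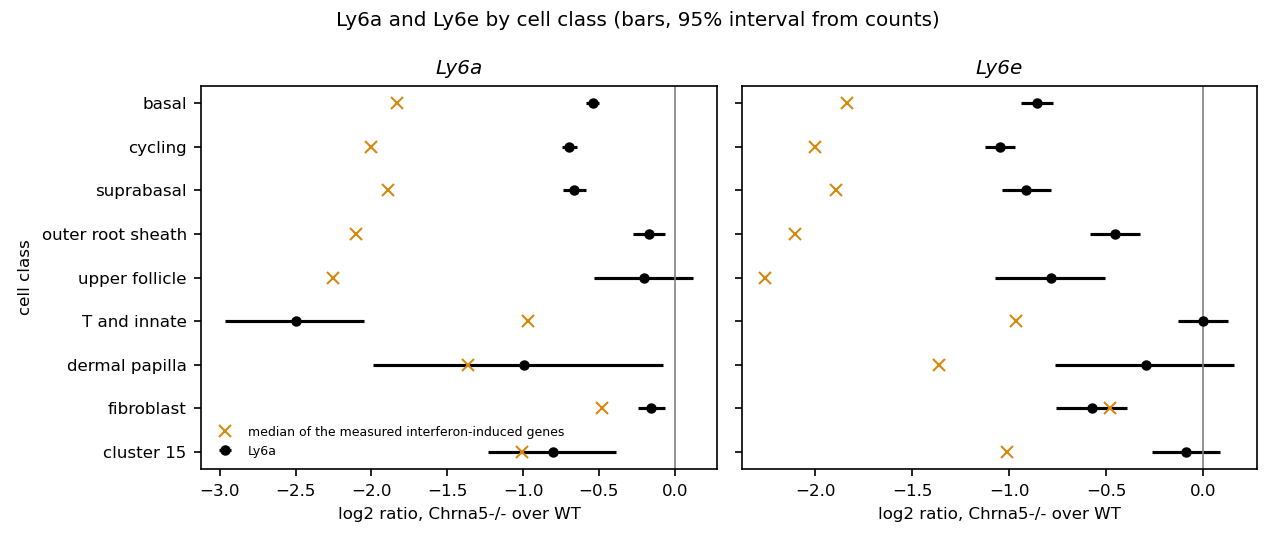
Log2 ratio, Chrna5-/- over WT, of Ly6a (left) and Ly6e (right) in 9 classes, with 95% intervals, and the median of the interferon-induced list (crosses). Ly6a lies at -2.49 in T and innate lymphoid cells, where Ly6e lies at 0 on the plot's scale, while in basal, cycling and suprabasal cells both lie below 0.

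Plaur, the urokinase receptor that focuses plasminogen activation at the cell surface, was at 11.4 CPM in the Chrna5-/- library and 14.3 CPM in the WT library in keratinocytes (ratio 0.800, interval 0.743 to 0.861). It was neither in each compared class, with ratios between 0.707 in suprabasal cells and 1.90 in cluster 15. Among keratinocytes basal cells had most, at 16.5 CPM in Chrna5-/- and 22.7 CPM in WT (ratio 0.728). Within single basal clusters the ratio was 1.81 in cluster 5, 1.01 in cluster 9 and 0.790 in cluster 10, each neither and each above the pooled basal ratio, and the libraries filled these clusters unevenly. In outer root sheath cluster 4 Plaur was lower, at 4.29 CPM in Chrna5-/- and 7.42 CPM in WT (ratio 0.578). Langerhans cells had 314 CPM in Chrna5-/- and 289 CPM in WT and T and innate lymphoid cells 85.6 CPM in Chrna5-/- and 83.5 CPM in WT (ratio 1.03, interval 0.780 to 1.35). Of its partners, inhibitors and ligand, 4 were lower and 0 higher of 15 measured in keratinocytes, with a median log2 ratio of -0.08. Plau, urokinase itself, had the highest ratio, 1.13. Among the lower were Plat, encoding tissue plasminogen activator (ratio 0.611), and the integrin genes Itgb3 (ratio 0.589) and Itga5 (ratio 0.538).

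The other listed family genes with at least 20 UMIs numbered 15. In keratinocytes 1 was lower and 3 higher of 13 measured, with a median log2 ratio of 0.15. Cd59a, a GPI-anchored inhibitor of complement, was higher in keratinocytes at 13.3 CPM in the Chrna5-/- library and 6.26 CPM in the WT library (ratio 2.13, interval 1.94 to 2.33), in suprabasal cells at 7.96 CPM in Chrna5-/- and 2.66 CPM in WT and in the dermal papilla at 19.6 CPM in Chrna5-/- and 6.20 CPM in WT. Its relative Cd59b was higher in keratinocytes on 95 UMIs in Chrna5-/- and 58 in WT (ratio 1.77, interval 1.27 to 2.50). How far reads of this pair were told apart was not tested. Ly6k was higher on 79 UMIs in Chrna5-/- and 36 in WT (ratio 2.38, interval 1.58 to 3.63), and Lypd5 was lower on 39 UMIs in Chrna5-/- and 84 in WT (ratio 0.503, interval 0.335 to 0.743).

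Over all kept cells Ly6c2 was lower on 46 UMIs in Chrna5-/- and 137 in WT (ratio 0.373, interval 0.261 to 0.525), of which cluster 15 held 40 UMIs in Chrna5-/- and 133 in WT. Ly6c1 was 664 CPM in Chrna5-/- and 761 CPM in WT in fibroblasts (ratio 0.872) and lower in basal cells at 8.66 CPM in Chrna5-/- and 14.7 CPM in WT (ratio 0.591). Ly6g6e, a neighbour of Ly6g6c, was 12.7 CPM in Chrna5-/- and 9.65 CPM in WT in keratinocytes (ratio 1.32, interval 1.22 to 1.43), neither, and Pinlyp was 5.70 CPM in Chrna5-/- and 7.46 CPM in WT (ratio 0.763), also neither. Lynx1, a membrane-bound modulator of nicotinic receptors, had 200 UMIs in Chrna5-/- and 222 in WT over all kept cells (ratio 1.00), neither. Lypd1, Lypd8, Ly6h, Ly6g5b and Ly6g6d were neither as well, with ratios of 0.810, 1.35, 2.22, 0.891 and 0.819. Of the remaining 16 listed genes, 9 had 0 UMIs in both libraries and 7 had fewer than 20.

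**Figure D5:**
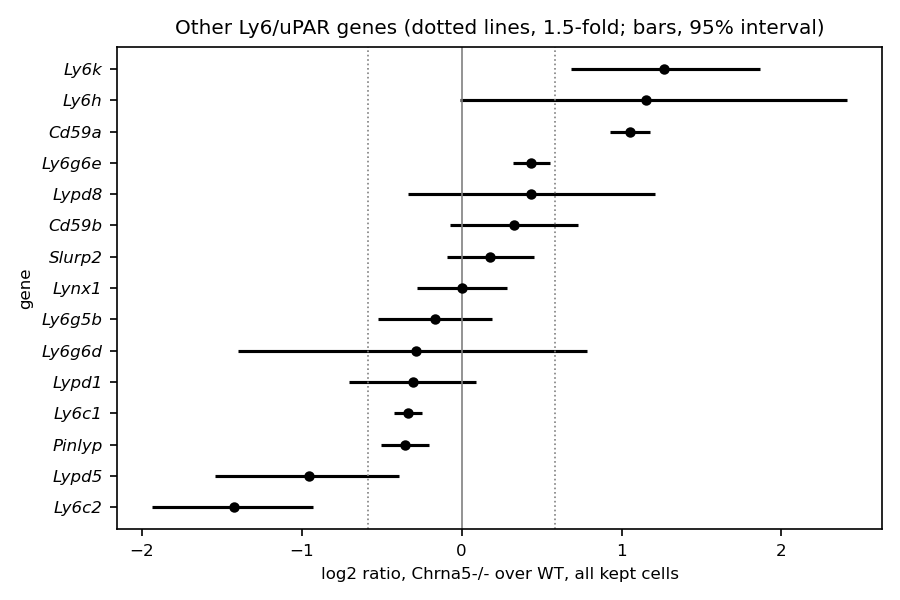
Log2 ratio, Chrna5-/- over WT, over all kept cells for the 15 other listed family genes with at least 20 UMIs, with 95% intervals and dotted lines at a ratio of 1.5 either way. Cd59a and Ly6k lie past the upper line and Ly6c2 and Lypd5 past the lower. Ly6h also lies past the upper line, but its interval includes a ratio of 1 and it was neither.

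Of the receptors that Slurp-type ligands bind, the nicotinic subunit list had 3 measured genes in keratinocytes, with 0 lower and 0 higher, from Chrnb2 (ratio 0.812) to Chrnb4 (ratio 1.23) and a median log2 ratio of -0.16. Of the 10 genes of GPI anchor attachment, 0 were lower and 0 higher in keratinocytes, from Pigs (ratio 0.850) to Pgap1 (ratio 1.34), with a median log2 ratio of -0.08.

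Genes whose level across 18 clusters in both libraries (36 points of log2(CPM + 1), which share libraries and depth) was most like each member are given with Pearson's r as a description. For Slurp1 they were Cnfn (r = 0.90), Lce3c (r = 0.89), Adgrf2 (r = 0.88), for Ly6g6c Adgrf2 (r = 0.93), Ephx3 (r = 0.93), Teddm3 (r = 0.92) and for Lypd3 Pkp1 (r = 0.96), Evpl (r = 0.94), Dsp (r = 0.94). For Ly6d they were Fam25c (r = 0.97), Oas1f (r = 0.96), Ehf (r = 0.96), for Lypd6b Sec14l4 (r = 0.94), Capns2 (r = 0.94), Hbegf (r = 0.92) and for Lypd6 Wfdc18 (r = 0.86), Atp8a2 (r = 0.82), Scrg1 (r = 0.77). For Ly6e they were Il4ra (r = 0.89), Gch1 (r = 0.86), S100a4 (r = 0.85), for Ly6a Uap1 (r = 0.87), C1galt1 (r = 0.82), Vegfd (r = 0.82) and for Plaur Arhgap17 (r = 0.86), Nr4a3 (r = 0.86), Parp4 (r = 0.86). Pkp1, Evpl and Dsp, the genes closest to Lypd3, encode desmosomal plaque and cornified envelope proteins, and Cnfn and Lce3c, closest to Slurp1, encode cornified envelope proteins.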

How the data were processed

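The members, gene lists and class markers were chosen with earlier results of these data known. As deposited, values are whole UMI counts, unnormalized, for each gene in each barcode, per the file headers. Per the submitters' processing notes, the tools include Cell Ranger 3.0.2 and Seurat 3.0 and the build is mm10, whereas the file headers name version 3.1.0. Filters before deposit are not stated there.

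Cells with at least 500 UMIs, 300 genes and at most 20% mitochondrial UMIs were kept (9308 Chrna5-/- and 10160 WT). Scrublet in scanpy 1.11.5 (assumed rate 0.08) marked 1.19% of Chrna5-/- and 0.0295% of WT cells at its own thresholds, which had not worked for WT. A score of 0.25, set after seeing the data, removed 439 Chrna5-/- (4.72%) and 487 WT cells (4.79%). Both libraries were clustered together (2000 variable genes without Ly6/uPAR genes, 30 components, 15 neighbours, Leiden resolution 1, igraph 0.11.9). A cluster name needed at least 3 markers in 25% of its cells. Leading genes were allowed to override marker levels after the clusters were seen. Ratios carry exact conditional binomial, sums Poisson and shares Clopper-Pearson 95% intervals (scipy 1.17.1). No fold is given where both counts are at or under 3. Text names every member in each compared class, other family genes with at least 20 UMIs, the lowest and highest gene of each list (some are not reported here), and 3 genes of like pattern per member with at least 200 UMIs. The calling was tested on simulated counts drawn with counting error only, which cannot gauge spread between cells or between libraries. Each result was recomputed under up to 18 other settings. Coordinates are GENCODE vM21, counted from 1.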

Additional observations from a re-analysis of the deposited data

Results flagged for a closer look

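Lypd6b had opposite directions in 2 keratinocyte clusters: its log2 ratio, Chrna5-/- over WT, was 0.67 in basal cluster 10 and -0.70 in bulge cluster 7, and the difference was not tested. Ly6d was at 1.02 in the dermal papilla (cluster 0) and -0.79 in the unnamed cluster 15, again with no test of the difference. Both pairs were picked out because the gene was called higher in 1 group of cells and lower in the other, with 1 comparison of libraries in each.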

How the results depend on the processing

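The log2 ratio of Slurp1 in keratinocytes was -1.23 and kept its direction under each of the 15 alternatives run. It was -1.77 after thinning to 1000 UMIs, with too few UMIs left to call, -0.46 as a mean over cells, -0.76 with clusters weighted alike, -0.48 without the 10 richest cells of each library and, as alternatives added after seeing the data, -0.58 without the richest WT cell and -0.85 without the richest cell of each library. The 2 members called lower in keratinocytes became 1 under a ratio of at least 2 (Slurp1), and 1 (Ly6e) after thinning, as a mean over cells, without the 10 richest cells and without the richest WT cell. The 0 called higher became 1 (Lypd6) with clusters weighted alike, a value with no interval. Ly6e stayed lower there under each other alternative, at log2 ratios between -0.88 and -0.81.

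Of 25 calls of a member in a class, 22 kept their direction under each alternative run and 10 kept their call, the stricter ratio aside. The reversals were Ly6g6c in outer root sheath and bulge at Leiden resolution 0.5 (0.0064), Ly6a in dermal papilla after thinning (0.93) and Ly6d in cluster 15 as a mean over cells (0.20), and the cause was not tested. Scaling by TMM or median of ratios moved the median by less than 0.1 (log2) in each class. No paired analysis was possible because each genotype has 1 library.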

Other observations

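Barcodes left out by the doublet score held 6 Slurp1 UMIs in the Chrna5-/- library and 5 in the WT library, and those that failed the cell filter held none in either library. Within the suprabasal class, 1 sub-cluster at Leiden resolution 2, of 396 Chrna5-/- and 343 WT cells, held 22 Slurp1 UMIs in the Chrna5-/- library and 100 in the WT library. Of the WT UMIs 60 lay in 1 cell, and without the richest cell of each library 20 were left in Chrna5-/- and 40 in WT. Its Ly6a level was 38.2 CPM in Chrna5-/- and 83.2 CPM in WT.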
